A study of Mus musculus with 6 samples.

Results

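Capillary endothelial cells were selected on their transcripts from single-cell suspensions of mouse tibialis anterior muscle, and numbered 664 of the 11207 cells examined in 6 libraries. A cell was chosen by at least 2 of the endothelial genes Cdh5, Pecam1, Cldn5 and Egfl7 above 0, a transcript of Gpihbp1, and no transcript of Vwf, Pdgfra or Ptprc. Each library pooled 3 male mice of a B6;129 background with the allele tm1(Fucci2aR)Jkn at Gt(ROSA)26Sor, aged 3 to 5 months at the start of the diets. Control mice ate a matched control diet, and hypothyroid mice ate a low iodine diet with 0.15% of the thyroid peroxidase inhibitor propylthiouracil (PTU). Muscles were taken uninjured (day 0) or 5 and 14 days after cardiotoxin, a myotoxin from snake venom given at 50 μg/ml, was injected into the right tibialis anterior. All 6 libraries carried this allele, the Fucci2aR cell cycle reporter, which is active only where a Cre recombinase acts, and per the study's methods the mice used for sequencing had no Cre. With 1 library for each diet and day, no difference between libraries was tested, and every interval below is a 95% interval for counting error alone.

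The capillary endothelium is where blood and muscle fibre exchange oxygen and fuel. Its cells hold GPIHBP1, the protein that carries lipoprotein lipase to the luminal surface, and CD36 and FABP4, which take up and carry fatty acids. After a myotoxin, microvessels are damaged with the fibres and then regrow under VEGF, angiopoietin, apelin and CXCL12 signals within a basement membrane of collagen IV and laminin. Thyroid hormone acts through nuclear receptors, THRA and THRB, and is known as a promoter of vessel growth in muscle and heart.

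Only the first run of columns of each library, up to where barcodes left alphabetical order, was used for the main results. These runs held 528 to 3294 cells and 2283740 to 23496509 unique molecular identifiers (UMIs, each 1 counted transcript molecule). A further 9062 columns have no stated condition. With them, the day 0 and day 5 libraries held 2304 and 4855 columns under the control diet and 1056 and 4309 under the hypothyroid diet. Those totals were close to the study's own cell counts. Capillary cells contributed 54923 UMIs from 26 cells, 339716 from 44 cells and 1971960 from 385 cells at days 0, 5 and 14 under the control diet. Under the hypothyroid diet they contributed 24870 UMIs from 8 cells, 109552 from 12 cells and 1234359 from 189 cells. Day 14 is therefore the only day with enough cells of both diets for a comparison of genes, and the hypothyroid pools of days 0 and 5 are given as values only. The median capillary cell held 1665, 5372 and 3142 UMIs at days 0, 5 and 14 under the control diet and 1865, 7820.5 and 3693 under the hypothyroid diet. The first runs of the libraries shared 12 cell barcodes, none with identical counts, and 2 capillary cells were among them.

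At day 14 the selected cells carried the other capillary markers. With every cell thinned to 1000 UMIs, Cd36 was found in 75.4% of the capillary cells of control day 14 and in 78.8% of those of hypothyroid day 14. In cells outside the endothelial gate of the same libraries, Cd36 was found in 7.0% and 6.27%, which was taken as the background. Rgcc, a cell cycle regulator marking capillary cells, was found in 46.6% and 55.2% of capillary cells, and Timp4, a metalloproteinase inhibitor, in 26.7% and 29.7%, against 0.98% and 0.31% for Timp4 outside the endothelial gate. These markers did not separate capillary cells from endothelial cells with a Vwf transcript, however. Cd36 was found in 76.0% and 84.2% of the Vwf-positive cells of the same libraries, and Rgcc in 31.2% and 68.4%. At control day 0 the difference was wider, with Cd36 at 3059 CPM (UMIs of the gene per 1000000 UMIs summed over the cells) in capillary cells and 643 in Vwf-positive cells, and Timp4 at 637 and 35.7. At control day 5, after thinning, Cd36 was found in 45.2% of capillary and 48.7% of Vwf-positive cells, against 3.00% outside the endothelial gate. Rgcc was found there in 26.2% and 25.6% of capillary and Vwf-positive cells, and Timp4 in 7.14% and 5.13%. The selection thus took Gpihbp1-positive, Vwf-negative endothelial cells, and its border with Vwf-positive endothelium was not sharp at days 5 and 14.

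Many cells lay near the thresholds of the selection. At control day 14, 44 of the 385 cells had exactly 2 of the 4 endothelial genes, 231 had all 4, and 106 held a single Gpihbp1 UMI. Just outside it were 18 cells with 1 endothelial gene, 192 with no Gpihbp1 and 90 with Vwf, of which 58 held a single Vwf UMI. At hypothyroid day 14, 23 of the 189 cells had exactly 2 endothelial genes, 122 had all 4, and 50 held a single Gpihbp1 UMI, while 50 cells lacked Gpihbp1 alone and 38 had Vwf alone, 19 of them with a single Vwf UMI.

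In the first runs of columns, capillary cells were a small share of the cells at days 0 and 5 and a larger share at day 14. With all columns this difference between days was much smaller under the control diet, at 6.86%, 6.71% and 9.61% at days 0, 5 and 14. The hypothyroid shares were then 1.80%, 1.23% and 11.5%. All shares that follow are those of the first runs. Under the control diet they were 2.26% of the cells at day 0 (1.48 to 3.29), 1.81% at day 5 (1.32 to 2.43) and 11.7% at day 14 (10.6 to 12.8). Under the hypothyroid diet the shares were 1.52% (0.656 to 2.96), 0.557% (0.288 to 0.971) and 11.5% (9.96 to 13.1). The day 5 share was thus lower under the hypothyroid diet than under the control diet, at a ratio of 0.307 (0.148 to 0.592), while the ratio was 0.980 (0.819 to 1.17) at day 14 and 0.671 (0.263 to 1.53) at day 0. After thinning all cells to 1000 UMIs, the day 5 ratio rested on 7 of 2024 hypothyroid cells and 18 of 2315 control cells and its interval included 1 (0.445, 0.157 to 1.12). All endothelial cells together were also fewer at hypothyroid day 5, at a ratio of 0.333 (0.225 to 0.485). The capillary share within the endothelium had a day 5 ratio of 0.921 with a wide interval (0.443 to 1.77).

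Within the endothelium the capillary shares before day 14 rested on too few hypothyroid cells to order the diets. They were 29.2% and 29.6% at day 0 and 35.2% and 32.4% at day 5 under the control and the hypothyroid diet. The day 0 ratio was 1.01 (0.397 to 2.31). After thinning, the day 0 shares were 21.3% and 46.2% and the day 5 shares 17.5% and 23.3%. With all columns they were 56.0% and 35.8% at day 0 and 48.5% and 36.6% at day 5, so the order of the diets changed with the setting. At day 14 the capillary share was 52.0% under the control diet and 67.5% under the hypothyroid diet, a ratio of 1.30 (1.08 to 1.55). The endothelial gate itself was smaller in the hypothyroid library at that day, at 17.0% of cells against 22.5% (ratio 0.755, 0.656 to 0.868). After thinning, the capillary shares of endothelium were 45.0% and 53.2%, with a ratio of 1.18 and an interval that included 1 (0.930 to 1.49). The part of depth in this difference was not tested.

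**Figure D1:**
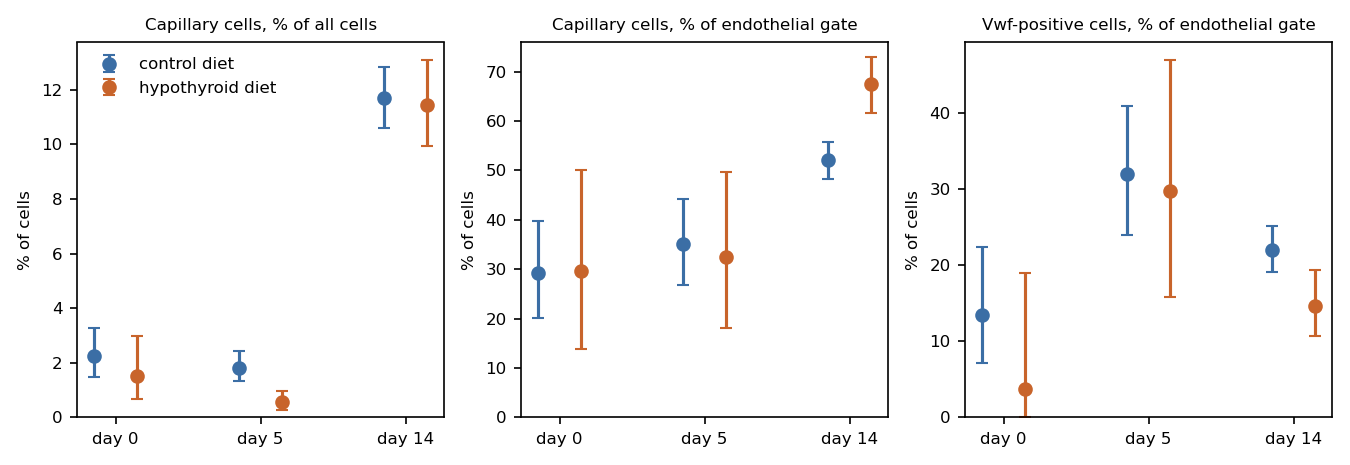
Capillary cells as a percentage of all cells (left) and of the endothelial gate (middle), and Vwf-positive cells as a percentage of the endothelial gate (right), for each diet and day. Points are single libraries of 3 pooled mice and bars are exact 95% binomial intervals for counting error. Capillary cells reached 11.7% and 11.5% of cells at day 14, and at day 5 the hypothyroid point (0.557%) lay below the control point (1.81%).

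Transcripts of other cell types were present in the capillary cells and differed between libraries. Muscle fibre marker genes (8 genes summed) made up 57335 CPM at control day 0, where 1 of the 26 cells held 2668 of their 3149 UMIs and the other cells stood at 11856. The same sum was 477 at control day 5, 11358 at control day 14 and 4074 at hypothyroid day 14. Markers of fibro-adipogenic progenitors (FAPs, the stromal cells of muscle, 8 genes) ranged from 161 to 4691 CPM over the 6 libraries and those of mural cells (10 genes) from 563 to 4226. Immune markers (10 genes) ranged from 0 to 447, red cell markers (5 genes) from 0 to 1696 and glial markers (5 genes) from 36.4 to 214. At day 14 the FAP markers stood at 4691 and 3349 under the control and hypothyroid diet, against 39725 and 28643 outside the endothelial gate. Of the defining markers, Pdgfra and Ptprc were at 0 because the selection required it. At least 3 markers of FAP, mural, immune or glial cells were present in 177 of 385 control and 76 of 189 hypothyroid capillary cells at day 14 (46.0% and 40.2%). Such cells numbered 8 of 44 and 2 of 12 at day 5 and 0 at day 0. Muscle and red cell markers were not part of these counts. At least 3 muscle markers were present in 383 of 385 control and 182 of 189 hypothyroid capillary cells at day 14. The day 14 results are therefore also given without the cells holding FAP, mural, immune or glial markers, which leaves muscle transcripts in place. The part of those cells in the other results was not tested.

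**Figure D2:**
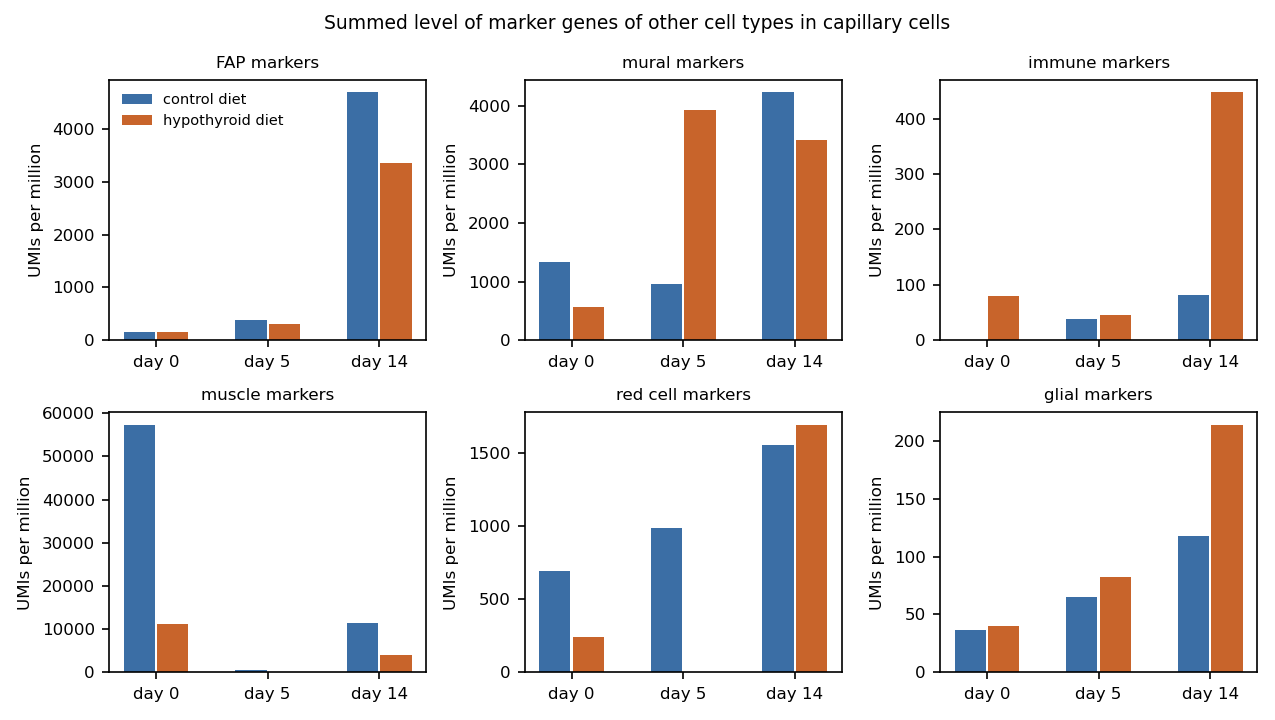
Summed level of marker genes of 6 other cell types in the capillary cells of each library, in CPM, by day and diet. Each bar is 1 library. Muscle markers were highest at control day 0 (57335, of which 84.7% lay in 1 cell), and FAP markers were highest at day 14 in both diets (4691 and 3349).

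At day 14, the hypothyroid and the control capillary cells had similar levels of the fatty acid uptake genes, while a set of matrix, apelin pathway, chemokine and interferon-inducible genes was lower in the hypothyroid library. A gene was called past the fold when the ratio of its CPM between the libraries was at least 2 or at most 0.5 and the counting interval excluded 1. Among 7087 genes with at least 50 UMIs in both pools together, 129 were called higher in the hypothyroid library, a percentage of 1.82, and 220 were called lower, a percentage of 3.1. The median ratio over all genes tested was 0.979. Higher genes were 37.0% of the calls, 24.9% without the capillary cells holding markers of another type and 52.6% when the cells' log2(CPM + 1) values were averaged in place of summing UMIs. Of these genes 38 and 83 were past 2-fold in the same direction in the cells outside the endothelial gate. Without the capillary cells holding markers of another type, 10 of the 129 higher genes and 69 of the 220 lower genes still had 50 UMIs, and 6 and 59 of these were still called. These counts describe 2 libraries, not the diets.

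**Figure D3:**
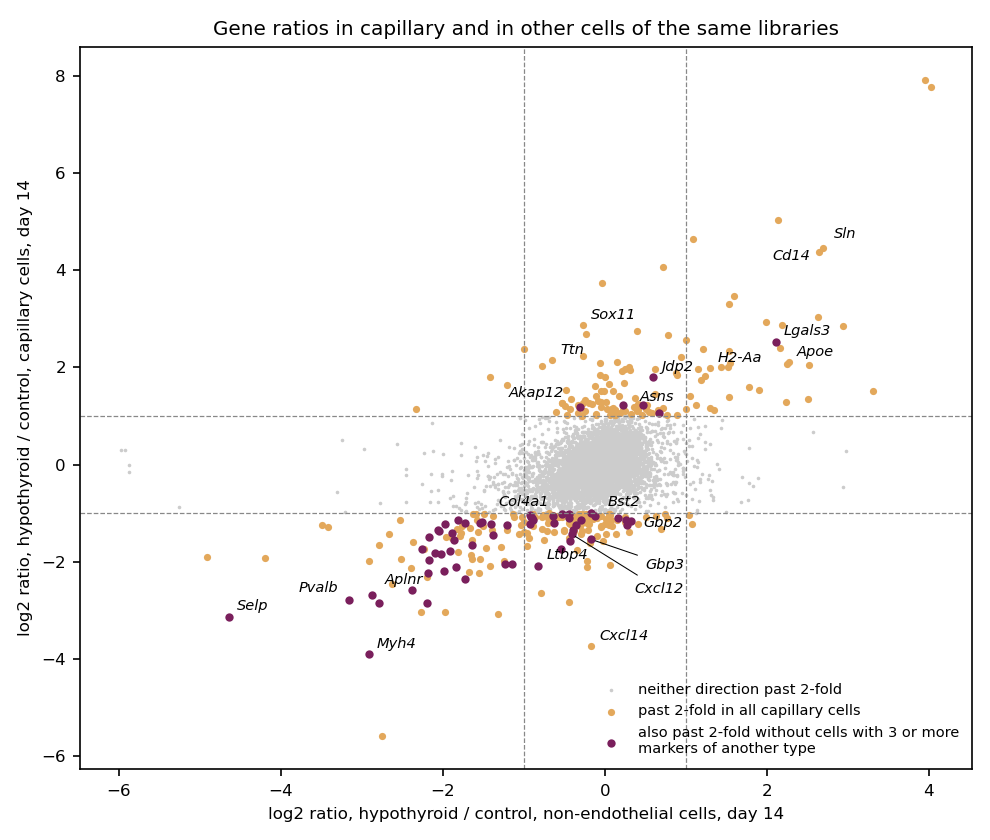
Log2 ratio of hypothyroid to control CPM at day 14 for each gene, in capillary cells (vertical axis) and in the cells outside the endothelial gate of the same libraries (horizontal axis). Dark points are genes still past 2-fold once capillary cells with 3 or more FAP, mural, immune or glial markers were left out. Dashed lines mark 2-fold. Cxcl12, Col4a1, Bst2, Gbp2 and Gbp3 lay below the lower dashed line on the vertical axis and inside the dashed lines on the horizontal axis, while Aplnr, Selp, Myh4 and Pvalb were low in both.

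Lipid uptake genes were close to even between the diets at day 14, while the list of capillary genes lay somewhat lower in the hypothyroid library. In the capillary list 1 of 17 tested genes was called, lower, against 3.1% of all genes tested. In this list 10 had a ratio below 1 and 7 above. Its median ratio was 0.825, against 0.979 over all genes tested and 0.667 for the same list outside the endothelial gate. In the lipid uptake list 0 of 16 were called (median 1.02). Cd36, the fatty acid translocase, was at 3059, 577 and 1575 CPM at days 0, 5 and 14 under the control diet and at 2131, 831 and 1820 under the hypothyroid diet. Its day 14 ratio was 1.16 (1.09 to 1.22). Fabp4, the cytosolic fatty acid carrier, was at 12891, 9761 and 8182 under the control diet and 10937, 7074 and 8673 under the hypothyroid diet, with a day 14 ratio of 1.06. Lpl, lipoprotein lipase, was at 363 and 361 at day 14, and Timp4 at 281 and 292. Tcf15, a transcription factor that works with Meox2 in the fatty acid programme of muscle and heart capillaries, was at 286 and 166, and Aqp1, the water channel of continuous capillaries, at 1778 and 1329.

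The one capillary gene called was Cxcl12, the chemokine ligand of CXCR4 that guides endothelial and stem cells. It was at 2331, 306 and 801 CPM at days 0, 5 and 14 under the control diet and at 161, 210 and 297 under the hypothyroid diet. The hypothyroid library was the lower of the pair on each day, although its day 0 and day 5 values rested on 4 and 23 UMIs and the counting intervals of day 5 overlapped. The day 14 ratio was 0.370 (0.330 to 0.415), against 0.753 in cells outside the endothelial gate and 0.443 in Vwf-positive cells, and it was 0.357 without the cells holding markers of another type. Its receptor Cxcr4 was at 86.2 and 64.0 at day 14.

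Apelin and its receptor were lower in the hypothyroid library at day 14. Apelin is a peptide of sprouting endothelial tip cells and its receptor, APLNR, is a G protein-coupled receptor of endothelial cells. The receptor gene lies at chr2:84966569-84970268 and the ligand gene at chrX:47114023-47123731 on the GRCm39 build. Aplnr was at 54.6, 218 and 151 CPM at days 0, 5 and 14 under the control diet and at 40.2, 9.13 and 23.5 under the hypothyroid diet. At day 14, 140 of 385 control cells and 22 of 189 hypothyroid cells held a transcript, and the ratio was 0.156 (0.103 to 0.229). Both hypothyroid values before day 14 rested on 1 UMI, and 49 of the 74 UMIs of control day 5 lay in 1 cell. Aplnr was also low in the cells outside the endothelial gate (ratio 0.136) and in Vwf-positive cells (0.320), and the ratio without the marker-holding capillary cells was 0.161. Apln, the ligand, was at 26.4 and 4.05 CPM at day 14, from 52 and 5 UMIs, with a ratio of 0.154 (0.0479 to 0.382). Plvap, the diaphragm protein of fenestrae and caveolae, was at 54.8 and 20.3, a ratio of 0.370. Angpt2, a TIE2 ligand of remodelling vessels, was at 147 and 166 and Pgf, a VEGFR1 ligand, at 339 and 583, neither past 2-fold. In all, 5 of 17 tested genes of the angiogenic tip list were called lower (Apln, Aplnr, Plvap, Col4a1 and Col4a2) and 0 higher. Over all genes tested, 3.1% were called lower. The list median was 0.866, against 0.735 outside the endothelial gate. Without the marker-holding cells 5 were called lower and 2 higher, with a median of 0.792, and the 2 higher were Pgf (ratio 3.45) and Adm, the vasodilator adrenomedullin (2.68).

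The receptors to which these and the VEGF signals bind were lower by less. In the list of VEGF, angiopoietin and BMP receptors and mediators 0 of 17 genes were called, while 16 of 17 had a ratio below 1 and the median was 0.825. Kdr, the main VEGF receptor, was at 657 and 542 CPM in the control and hypothyroid library of day 14, Flt1, its decoy, at 1043 and 1007, Nrp1, a VEGF co-receptor, at 491 and 289, and Tek, the angiopoietin receptor TIE2, at 131 and 89.9. The list of endothelial transcription factors had a median of 0.820 with 0 of 21 called, and the pan-endothelial list a median of 0.836 with 0 of 20 called. Outside the endothelial gate the medians were lower, at 0.726 for the receptor list, 0.572 for the transcription factors and 0.560 for the pan-endothelial list.

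Collagen IV and its basement membrane partners were lower in hypothyroid capillary cells at day 14. Of 14 basement membrane genes 13 had a ratio below 1, and the list median was 0.632. In this list 3 were called lower (Col4a1, Col4a2 and Col18a1), where 3.1% of all genes tested were. The median of the same list outside the endothelial gate was 0.648, so the list as a whole was no lower in capillary cells than in other cells. Col4a1 and Col4a2 encode the paired chains of the collagen IV trimer, and are transcribed in opposite directions from start sites 21 bases apart. Their start windows are shown because the pair was lower to the same extent. Each is the RefSeq stretch of GRCm38.p6 from 250 bases before to 50 bases after the start, 5′ to 3′ on the gene's own strand, at chr8:11312777-11313076 (minus strand) for Col4a1 and chr8:11312555-11312854 (plus strand) for Col4a2. Capitals mark the 78 bases that both windows hold, read from opposite strands.
Col4a1: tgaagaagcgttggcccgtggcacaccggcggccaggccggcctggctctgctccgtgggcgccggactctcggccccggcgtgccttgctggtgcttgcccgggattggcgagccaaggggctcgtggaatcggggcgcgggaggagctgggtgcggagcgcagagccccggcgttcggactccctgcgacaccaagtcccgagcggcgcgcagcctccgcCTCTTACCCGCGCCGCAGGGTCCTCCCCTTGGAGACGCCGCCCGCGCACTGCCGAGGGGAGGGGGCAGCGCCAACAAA
Col4a2: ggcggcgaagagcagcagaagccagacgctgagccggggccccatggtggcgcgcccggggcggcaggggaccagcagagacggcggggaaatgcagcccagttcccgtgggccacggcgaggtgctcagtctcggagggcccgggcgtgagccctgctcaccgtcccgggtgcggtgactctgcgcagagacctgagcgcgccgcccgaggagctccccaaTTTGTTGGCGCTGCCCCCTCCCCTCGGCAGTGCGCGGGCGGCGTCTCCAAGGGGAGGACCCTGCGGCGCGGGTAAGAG
The G and C content of these windows was 74% and 73.7%, against a median of 52.7% over the 32851 start windows of the RefSeq table.

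Col4a1 was at 856, 2823 and 3064 CPM at days 0, 5 and 14 under the control diet and at 965, 2246 and 1504 under the hypothyroid diet. Col4a2 was at 619, 1166 and 1623 under the control diet and at 201, 1178 and 798 under the hypothyroid diet. The diets thus lay closer for both genes at day 5 than at day 14, when the hypothyroid library was the lower, at ratios of 0.491 (0.466 to 0.517) for Col4a1 and 0.492 (0.457 to 0.528) for Col4a2. Outside the endothelial gate the ratios were 0.735 and 0.693, in Vwf-positive cells 0.622 and 0.810, and without the marker-holding capillary cells 0.450 and 0.490. Col18a1, the precursor of endostatin, was at 36.4, 374 and 112 under the control diet and at 0, 438 and 52.7 under the hypothyroid diet, with a day 14 ratio of 0.472 (0.352 to 0.625). Sparc, a collagen-binding matricellular protein, was at 4700 and 2404 at day 14 and Col15a1 at 386 and 201, ratios of 0.511 and 0.520 that missed the 2-fold limit. Among the matrix genes outside this list, Ltbp4, a binding protein of latent TGF-beta, was at 469 and 111 (ratio 0.237), and Igfbp7, a secreted angiomodulin of endothelium, at 2791 and 1265 (ratio 0.453).

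Several interferon-inducible genes were lower in hypothyroid capillary cells at day 14, while the same list lay above 1 outside the endothelial gate. Of 30 interferon and MHC class I genes 25 had a ratio below 1, 6 were called lower and 0 higher, and the median ratio was 0.751. Over all genes tested, 3.1% were called lower and 1.82% higher. The median of the same 30 genes outside the endothelial gate was 1.60. Bst2 (tetherin) was at 528, 824 and 524 CPM at days 0, 5 and 14 under the control diet and at 402, 639 and 251 under the hypothyroid diet, with a day 14 ratio of 0.479 (0.421 to 0.545) against 0.918 outside the gate. Gbp2, a guanylate-binding protein, was at 280 and 126 at day 14, with a ratio of 0.449 (0.373 to 0.537) against 1.25 outside the gate, and Gbp3 was at 170 and 58.3, with a ratio of 0.343 against 0.891. In Vwf-positive cells the ratios were 0.760 for Bst2, 0.714 for Gbp2 and 0.687 for Gbp3. At day 5 the sum of the list was in the opposite order, from 12 hypothyroid cells. It was 15133 CPM (14722 to 15553) in the control and 23176 (22283 to 24096) in the hypothyroid library. Cxcl10, a T cell chemokine, was then at 601 and 2583 and Rsad2 (viperin) at 1749 and 2775, while Bst2 was lower in the hypothyroid library. Of the 204 Cxcl10 UMIs of control day 5, 178 lay in 5 cells. The difference between capillary and other cells was not tested.

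Vessel type genes showed a similar pattern with few transcripts. As a background for the counts below, 3.1% of all genes tested at day 14 were called lower and 1.82% higher. In the arterial list 4 of 15 genes were called lower, among them Hey1, a Notch target, at 101 and 34.0 CPM in the control and hypothyroid library of day 14 (ratio 0.335), and Gja4, connexin 37, at 39.6 and 11.3. Unc5b, a netrin receptor of endothelium, was at 86.2 and 25.9 (ratio 0.301). The arterial list median was 0.799 in capillary cells and 0.704 outside the endothelial gate, and the venous list median was 0.643 and 0.732. In the venous list 4 of 10 were called lower and 1 higher, but Selp, the P-selectin of venules, rested on few cells, with 84.0% of its 294 control UMIs in 5 cells. Ccl21a, the chemokine of lymphatic endothelium, lay in the same way in a few cells. At control day 14, 818 of its 820 UMIs came from 6 cells with 3 or more lymphatic markers, so the selection held a few lymphatic cells (1.56% and 1.59% of the capillary cells at day 14 under the control and hypothyroid diet).

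Fewer genes were higher in hypothyroid capillary cells at day 14, and several of those rested on single cells. Akap12, a scaffold of protein kinases A and C that stabilises endothelial barriers, was at 54.6, 477 and 467 CPM at days 0, 5 and 14 under the control diet and at 40.2, 383 and 1056 under the hypothyroid diet. Its day 14 ratio was 2.26 (2.08 to 2.46), against 0.808 outside the endothelial gate and 2.58 in Vwf-positive cells, and it was 4.13 without the marker-holding cells. Jdp2, a repressor of AP-1, was at 56.3 and 195 (ratio 3.47, 2.76 to 4.38), and Asns, asparagine synthetase, at 59.8 and 139 (ratio 2.33). In Vwf-positive cells their ratios were 2.51 and 2.03. Lgals3, galectin 3, was at 80.1 and 462, but 63.7% of its hypothyroid UMIs lay in 5 cells, and Cxcl2, a neutrophil chemokine, was at 405 and 843. Among the genes with the widest ratios, Sln (sarcolipin) had 348 of its 439 hypothyroid UMIs in 1 cell and Cd14, a monocyte receptor, 188 of 234. Ttn, the giant sarcomere protein, held 91.6% of its hypothyroid UMIs in 5 cells, and its ratio of 4.41 became 0.473 without the marker-holding cells.

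All 4 tested MHC class II genes were called higher in the hypothyroid library, against 1.82% of all genes tested, and their transcripts lay in very few cells. Cd74, the invariant chain, was at 181 and 710 CPM at day 14, a ratio of 3.93, but 93.5% of its control UMIs and 93.6% of its hypothyroid UMIs came from 5 cells in each library. In Vwf-positive cells the Cd74 ratio was 0.0724. H2-Aa, a class II alpha chain, was at 104 and 412, with 94.7% and 94.5% in 5 cells. The 3 tested immune markers, C1qa, Cd68 and Lyz2, were called higher as well, and Lyz2 had 94.0% of its hypothyroid UMIs in 5 cells. Muscle fibre transcripts were lower in the hypothyroid capillary cells, with Mylpf, a fast myosin light chain, at 3296 and 847, Pvalb, parvalbumin, at 769 and 111 and Myh4, the fast IIB myosin, at 231 and 15.4. The ratio of the summed muscle markers was in the same direction outside the endothelial gate, at 11920 and 3386 CPM.

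**Figure D4:**
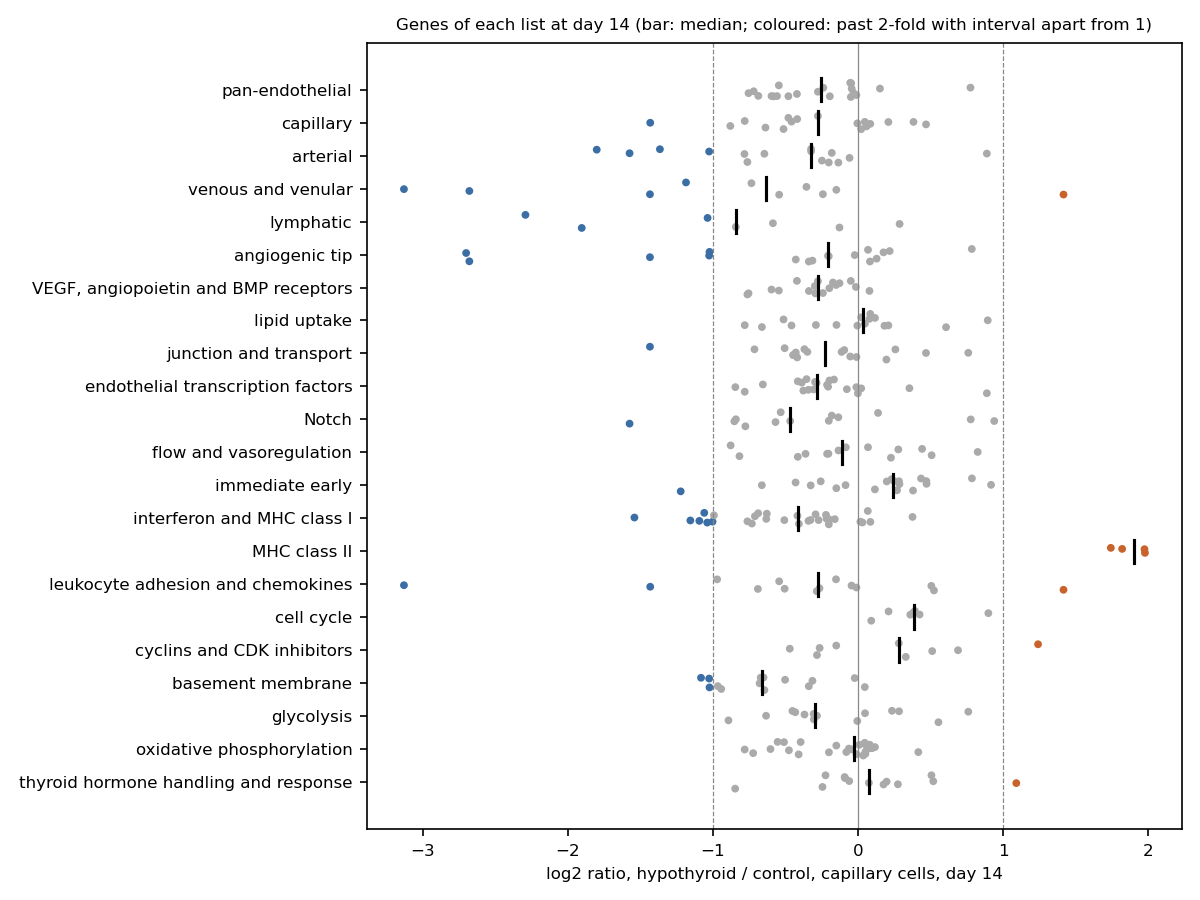
Log2 ratio of hypothyroid to control CPM in capillary cells at day 14, for the tested genes of each list (points, coloured where called) with the list median (bar). The basement membrane median (ratio 0.632) and the interferon median (0.751) lay below 0 on this axis, the lipid uptake median (1.02) lay near 0, and all 4 MHC class II genes lay above the upper 2-fold line.

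Genes of thyroid hormone handling and response were close to even between the diets at day 14. In this list 1 of 13 tested genes was called higher, Per1, against 1.82% of all genes tested, and the list median was 1.05. Thra, a nuclear receptor of the hormone, was at 73.5 CPM under the control and 105 under the hypothyroid diet, a ratio of 1.43 (1.12 to 1.83). Klf9, a direct target of the hormone in many tissues, was at 625 and 527, a ratio of 0.843 (0.766 to 0.928), and Thrsp, which responds to the hormone in liver and fat, at 35.5 and 42.9. Per1, a clock gene, was at 24.3 and 51.8, from 48 and 64 UMIs. Immediate early genes, which dissociation itself can induce, were also near even, with 1 of 20 called and a median of 1.18. Fos was at 2125 and 2494 and Egr1 at 1686 and 2338. Oxidative phosphorylation genes had a median of 0.981 with 0 of 26 called, but without the marker-holding cells 4 were called lower (Atp5g1, Cox6c, Ndufa4 and Uqcrc1) and the median was 0.837. Glycolysis genes had a median of 0.816 with 0 of 14 called, and without those cells 1 was called each way.

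Under the control diet, day 5 capillary cells had less of the capillary identity genes and more of the tip cell and matrix genes than uninjured ones. With 1516 genes at 50 UMIs or more, 465 were called higher at day 5, a percentage of 30.7, and 150 lower, a percentage of 9.89. The day 0 pool held 26 cells, so a gene had to be well above it to reach 50 UMIs, and the excess of higher calls carries that filter. Higher genes were 75.6% of the calls, and with the scale set by the median ratio of the 392 genes with 20 UMIs in both pools, which lay at 0.855 (a shift of -0.23 on the log2 scale), they were 83.2%. With averaged log2(CPM + 1) values they were 95.3%, and at a minimum of 20 UMIs 60.0%. In the capillary list 10 of 12 tested genes were called lower and 0 higher, with a median ratio of 0.302 against 1.51 over all genes tested and 0.855 over the genes with 20 UMIs in both pools. Cd36 had a day 5 to day 0 ratio of 0.189 (0.153 to 0.233), Rgcc one of 0.193, and Aqp1 one of 0.242. Tcf15 went from 692 to 70.6 CPM and Cxcl12 from 2331 to 306, ratios of 0.102 and 0.131. With all columns of the files, including those of no stated condition, the ratios of Cxcl12, Tcf15, Aqp1, Kdr and Nrp1 were 2.35, 1.32, 1.09, 1.15 and 1.30, so their direction turned. Without the 1 day 0 cell with most muscle transcripts, which held 14351 of the 54923 UMIs, 369 genes were called higher and 157 lower, Cd36 had a ratio of 0.143, and Vim (vimentin) one of 9.68 in place of 6.17. In the lipid uptake list 3 of 6 were called lower, while Fabp4 kept a ratio of 0.757. The VEGF receptors were lower as well, with Kdr at 1803 and 659, Flt1 at 2749 and 889 and Nrp1 at 1548 and 297, whereas Nrp2, the co-receptor of VEGF-C, was at 237 and 807.

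The tip cell list went the other way at day 5. In the tip cell list 10 of 12 genes were called higher and 0 lower, with a median of 3.74. Summed over 18 genes of the list without that minimum, the level was 3186 CPM at day 0 and 10512 at day 5. Col4a1 had a day 5 to day 0 ratio of 3.30 (2.46 to 4.52), Vim went from 619 to 3818 CPM, and Angpt2 from 91.0 to 318. In the basement membrane list 8 of 11 were called higher, with Col15a1 at 72.8 and 718 and Hspg2, perlecan, at 273 and 977. Outside the endothelial gate the median of the basement membrane list was 0.326 over the same days, so the medians of capillary and other cells lay on opposite sides of 1, a difference that was not tested. Edn1, endothelin 1, had 0 UMIs at day 0 and was at 492 CPM at day 5, where 118 of its 167 UMIs lay in 5 cells. With 3 counts put in place of 0, its ratio was 9.0, and the lower end of the counting interval was 7.24. Slc7a11, the cystine transporter, was at 0 and 574, a ratio of 10.5 by the same rule with a lower interval end of 8.47. Hmox1, haem oxygenase 1, was at 364 and 2852. Adhesion molecules for leukocytes were higher too, with Icam1 at 109 and 677. The flow-induced factors Klf2 and Klf4 were lower, at 1711 and 553 and at 983 and 371, as were 9 of 16 tested immediate early genes, with Fos at 2931 and 686, but with averaged log2(CPM + 1) values the ratios of Klf4 and Fos were 1.10 and 1.03. Smad7, an inhibitor of TGF-beta and BMP signalling, was at 109 and 951.

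The few hypothyroid cells showed the same order of days 0 and 5 for several of these genes and the opposite order for others. Under the hypothyroid diet Rgcc was at 483 and 347 CPM, Tcf15 at 161 and 63.9, Kdr at 804 and 393, Vim at 804 and 4254, and Col18a1 at 0 and 438. Cxcl12 went the other way, from 161 to 210, and Aplnr went from 40.2 to 9.13 where the control pools went from 54.6 to 218. These pools held 8 and 12 cells and were not compared further. Rgcc rested on 12 and 38 UMIs in them, Cxcl12 on 4 and 23 and Aplnr on 1 and 1. In the day 0 pool 3 UMIs would be 121 CPM, so the order of such low values is uncertain. Vcam1, an adhesion molecule, was at 885 and 922 in the hypothyroid pools of days 0 and 5 and at 109 and 274 in the control pools, and 100 of the 101 UMIs at hypothyroid day 5 lay in 5 cells.

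**Figure D5:**
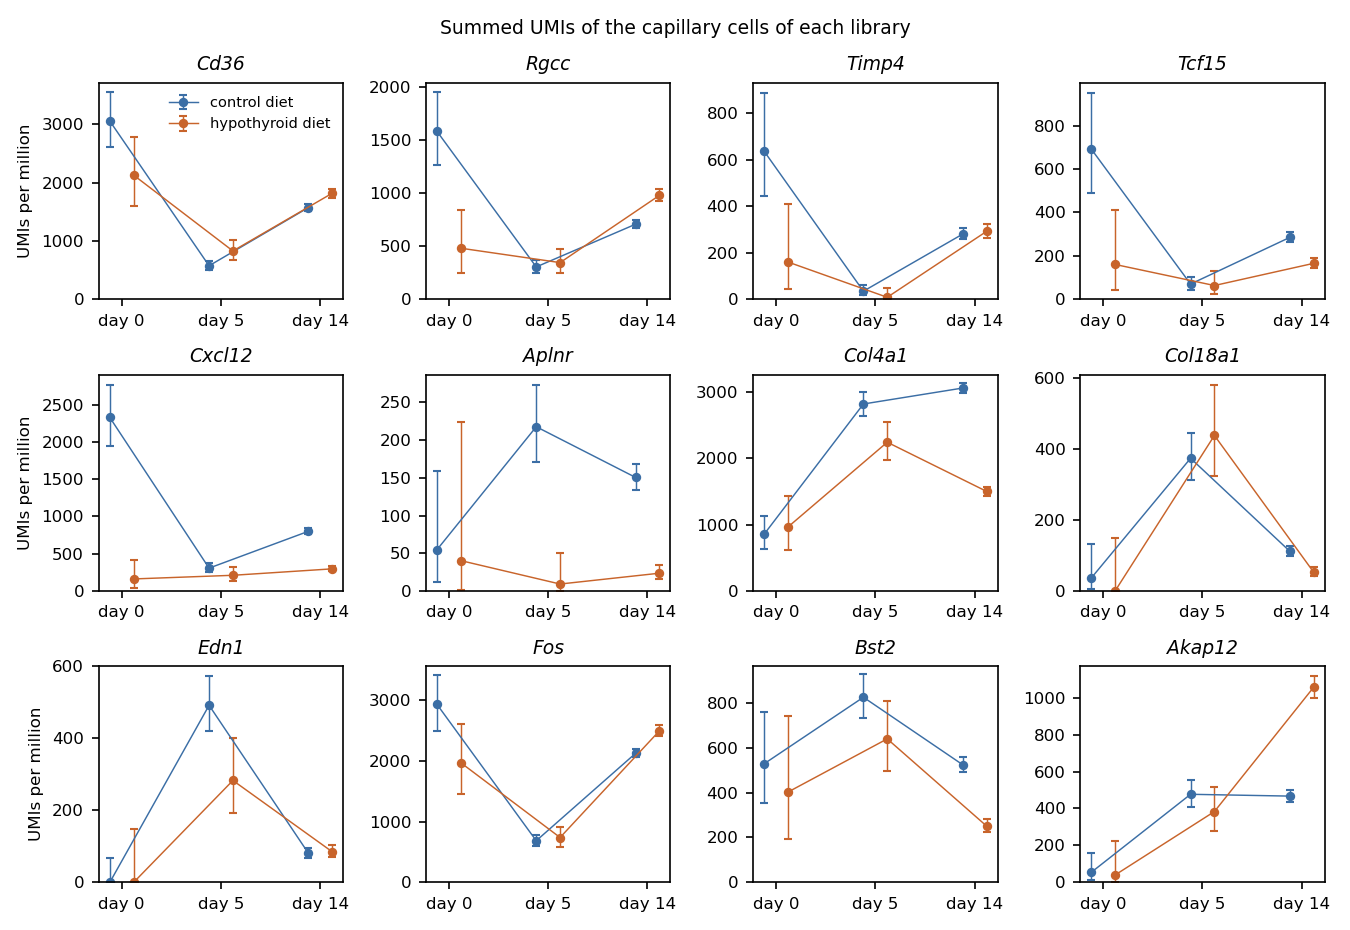
Level of 12 genes in the capillary cells of each library, in CPM, against day for the control and the hypothyroid diet. Points are single libraries and bars are exact 95% Poisson intervals for counting error. Cd36, Rgcc, Timp4 and Tcf15 were lowest at day 5 in both diets, Edn1 and Col18a1 were highest at day 5 in both, and at day 14 Cxcl12, Aplnr, Col4a1 and Bst2 were lower and Akap12 higher in the hypothyroid library.

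From day 5 to day 14 under the control diet, the capillary genes were higher again. Among 6021 genes tested, 667 were called higher at day 14, a percentage of 11.1, and 284 lower, a percentage of 4.72. Higher genes were 70.1% of the calls, but 88.7% with the scale set by the median ratio of 3081 genes with 20 UMIs in both pools (0.837, a shift of -0.26 on the log2 scale), 58.5% without the marker-holding cells and 12.3% with averaged log2(CPM + 1) values. In the capillary list 10 of 17 were called higher and 0 lower, with a median ratio of 2.31 against 0.983 over all genes tested, and 12 were called higher without the marker-holding cells. Cd36 had a ratio of 2.73 (2.36 to 3.17), Timp4 one of 7.95 (4.52 to 15.5), Tcf15 one of 4.04 and Cxcl12 one of 2.62. In cells outside the endothelial gate the median of the capillary list was 2.91, so the higher level was not particular to the capillary cells. Lipid uptake genes were called higher in 5 of 16 cases, among them Aqp7, an aquaglyceroporin, at 32.4 and 119 CPM. Kdr and Flt1 were near even from day 5 to day 14, with ratios of 0.996 and 1.17, and at day 14 stayed below their day 0 levels of 1803 and 2749.

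Genes of the injury state were lower at day 14 than at day 5. Among all genes tested, 4.72% were called lower and 11.1% higher. In the tip cell list 5 of 17 were called lower and 1 higher, with Angpt2 at 318 and 147, Vim at 3818 and 1849 and Plvap at 244 and 54.8. Edn1 had a ratio of 0.165 and Col18a1 one of 0.298, whereas Col4a1 was near even at 1.09. Of the interferon list 5 of 30 were called lower and 1 higher, with Rsad2 at 1749 and 625. Immediate early genes were called higher in 6 of 20 cases, with Fos at 686 and 2125. Dcn and Thbs4, genes of FAPs and tendon cells, were among the widest ratios, and without the marker-holding cells 0 of 4 MHC class II genes were called, where 4 of 4 had been.

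Capillary cells with several cell cycle transcripts were scarce. With cells thinned to 1000 UMIs, 4 of 42 cells (9.52%, 2.66 to 22.6) held at least 3 genes of the replication and mitosis list at control day 5, against 3 of 341 (0.880%, 0.182 to 2.55) at control day 14 and 1 of 165 (0.606%, 0.0153 to 3.33) at hypothyroid day 14. None of the 12 hypothyroid day 5 cells did, which allows a share of up to 25%, and none of the 20 control or 7 hypothyroid cells of day 0. Unthinned shares were 38.6% at control day 5, 50% at hypothyroid day 5 (6 of 12 cells), 12.7% at control day 14 and 22.2% at hypothyroid day 14, so no order of the diets at day 5 can be given. Birc5, survivin, was at 132 CPM at control day 5 and 5.07 at control day 14, and had no UMI at hypothyroid day 5. At control day 5, 31 of its 45 UMIs lay in 1 cell. In the hypothyroid day 5 pool 3 UMIs would be 27.4 CPM. The cell cycle inhibitors Cdkn1b and Cdkn1c were at 255 and 510 at control day 0, 17.7 and 50.0 at day 5 and 62.9 and 280 at day 14.

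Capillary cells were set against Vwf-positive endothelial cells of the same library in the only comparison with replicates. In 5 libraries with at least 10 cells of each kind, limma on log2(CPM + 10), paired by library, called 0 of 8641 genes higher and 0 lower at an adjusted p under 0.05 (percentages of 0 and 0). At an unadjusted p under 0.05 there were 214 higher and 144 lower. In simulated data of the same size this test recovered 78 of 177 genes changed 4-fold, so 4-fold as well as smaller differences could have been missed. The spread between pools was set in advance in that simulation, not taken from these data, so the recovery here may differ. The gene with the lowest p was Spint2, a serine protease inhibitor of epithelia, with a log2 difference of -1.59 (SE 0.31, limma adjusted p = 0.83) and a lower value in 5 of 5 libraries. Selp and Ackr1, genes of venules, had log2 differences of -3.65 (SE 0.83) and -2.75 (SE 0.74), and Plvap one of -1.16 (SE 0.31), all with the same adjusted p. Among the genes higher in capillary cells, Sdc4, a heparan sulphate proteoglycan, had a log2 difference of 1.01 (SE 0.29). None of these differences passed the correction.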

How the data were processed

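Single-cell suspensions were captured with a 10x 3′ kit. Per the labels and the study's methods, reads were processed with Cell Ranger on mm39 and with Partek Flow. The deposited values were log2(CPM + 1) per gene and cell, made by the authors. Each column was turned back to CPM and divided by its most frequent value above 0, taken as 1 UMI. This gave whole UMIs for 99.9% of 39334018 values above 0 (tolerance 0.1), and 7 genes that did not come out whole were left out. Taking the smallest value as 1 UMI was an alternative for the shares. Columns after the first alphabetical run of barcodes (9062 columns) have no stated condition and were used only as an alternative. UMIs were summed over the capillary cells of a library. Ratios carry exact conditional binomial intervals, shares Clopper-Pearson intervals and levels Poisson intervals. limma 3.58.1 (R 4.3.3) tested capillary against Vwf-positive cells with library as a block, and other steps used Python 3.11.15 and scipy 1.17.1. Doublets were not called. As alternatives, cells with 3 or more FAP, mural, immune or glial markers were left out, and so was the day 0 cell with most muscle transcripts. Both were chosen after seeing the data. The members and the 28 gene lists (399 genes, of which 7 were not analysed here) were chosen with earlier results of these data known. Named genes are list members, the 10 genes each way with the interval end nearest 1 farthest from 1 (at least 100 UMIs and 10 cells in the higher pool), and the 10 each way with the lowest limma p. Other genes named were chosen after their values were seen. The capillary ratio rule recovered 99.4% of simulated 4-fold changes at day 14. That simulation held counting error alone, so it cannot show how the rule fares with spread between cells, mice or libraries. Start windows came from RefSeq on GRCm38.p6 and gene positions from GENCODE on GRCm39, and no position was converted between the builds.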

Additional observations from a re-analysis of the deposited data

Results flagged for a closer look

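For 5 genes the ratio of hypothyroid to control at day 14 lay past 2-fold in opposite directions in capillary cells and in the cells outside the endothelial gate of the same libraries. The capillary and the other ratio were 2.2 and 0.199 for Actc1 (cardiac actin), 3.5 and 0.373 for Cacng1 (a muscle calcium channel subunit), 3.11 and 0.431 for Neb (nebulin), 0.486 and 2.05 for Gbp4, and 0.428 and 2.11 for Prdm1. The difference between the kinds of cell was not tested. Neb had a ratio of 0.778 without cells above the 95th percentile of UMIs. In the 9062 columns after the first runs of barcodes, whose condition is not stated, 667 cells passed the capillary selection.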

How the results depend on the processing

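Among the counts and shares of the comparisons, 99 alternative values stayed within 1.5 times the count or within the counting interval. Between diets and between days, no paired analysis was possible because each has 1 library. For hypothyroid against control at day 14, the genes called higher and lower numbered 264 and 384 at a minimum of 20 UMIs and 25 and 60 at 200 UMIs. Averaged log2(CPM + 1) values gave 100 lower, and leaving out cells with markers of another type gave 51 higher. For day 5 over day 0 the counts were 1266 and 63 with averaged log2 values and 120 and 39 at 200 UMIs, with 354 lower at 20 UMIs and 189 higher with all columns. For day 14 over day 5 they were 242 and 1720 with averaged log2 values, 233 and 92 at 200 UMIs and 138 and 41 with all columns, with 126 lower under median-ratio scaling and 338 higher without the cells holding other markers. With all columns the ratio of capillary shares was 0.262 at day 0 and 1.19 at day 14. Shares of cycling cells without thinning were 38.6%, 50%, 12.7% and 22.2% at control day 5, hypothyroid day 5, control day 14 and hypothyroid day 14, and with 2 genes required 2.64% at control day 14. Ratios that crossed 1 with averaged log2 values were those of Actc1 (0.571), Neb (0.960) and Ttn (0.942) at day 14 and of Fos (1.03) and Klf4 (1.10) for day 5 over day 0. Ttn fell to 0.473 without the cells holding other markers, and Neb to 0.778 without the cells of most UMIs. With all columns, day 5 over day 0 crossed 1 for Aqp1 (1.09), Cxcl12 (2.35), Hmox1 (0.761), Kdr (1.15), Klf2 (1.10), Klf4 (1.01), Nrp1 (1.30) and Tcf15 (1.32), and day 14 over day 5 for Cxcl12 (0.784) and Tcf15 (0.869). These columns have no stated condition. The limma counts were 0 in every setting and without each library in turn (0 to 0). The cause of these shifts was not tested. Depth limited days 0 and 5 most, where the pools held 8 to 44 cells.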
